A study of Homo sapiens and Mus musculus with 24 samples.

Results

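The major cluster of replication-dependent histone genes on mouse chromosome 13 was described from the ChIP-seq peaks of E14.5 fetal liver. Members were all peaks of the 12 fetal liver lists that overlap the window from 21700000 to 23800000 by at least 1 bp, a span of 2.1 Mb described in 42 steps of 50 kb. They numbered 1521 of the 564622 peaks on the 19 autosomes and chromosome X, summed over the 12 lists. No source names the genome build. The contig names and peak positions fit mm10, and the window was given on that build.

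The libraries came from livers at embryonic day 14.5, labelled WT or hemogen KO. There were 2 libraries each of WT hemogen (antibody against the HA tag), WT H3K27ac, WT BRG1 and KO BRG1, and each group also had a group list. The labels say neither how the HA tag was introduced in livers labelled WT, nor how the KO allele was made, nor whether libraries came from separate animals. Spreads are therefore between libraries and may be technical. Hemogen was not profiled in the KO here, so its loss was not checked.

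Replication-dependent histone genes encode the core histones H2A, H2B, H3 and H4 and the linker histone H1. They are switched on in S phase, when new DNA must be packed into nucleosomes, and their mRNAs end in a stem-loop in place of a poly(A) tail. In the mouse, blocks of these short genes are split by other genes, among them receptor genes that are silent in blood cells. At this age most red cells are made in the fetal liver, whose dividing erythroid precursors need a large supply of histones. Hemogen, a nuclear protein, is made mainly in blood-forming cells. BRG1 is the motor subunit of the SWI/SNF complexes, which shift nucleosomes, and H3K27ac is an acetylation of histone H3 found at active promoters and enhancers. Peaks are given by position with no gene assigned, since gene models of the mouse were not used here, and marker genes of the tissue were not located.

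Depth behind the BRG1 lists was unequal. With the read depth of WT BRG1 library 1 set to 1, the other WT BRG1 library stood at 1.04 and the KO BRG1 libraries at 0.404 and 0.341. This depth was computed from the peaks' folds and p-values and the width of each list's shortest peak. After the scaling that the folds and p-values imply, the calling depth of WT library 2 was 0.860, and that of the KO libraries 0.258 and 0.261. Before scaling it was 0.721 and 1.02 in the hemogen libraries and 0.791 and 0.844 in the H3K27ac libraries. BRG1 library lists held 26329 and 21165 peaks in WT and 3205 and 5592 in the KO. Peak calls among near-identical gene copies also depend on how reads with several equal matches were handled, and no source used here states this. The part of depth in the differences between WT and KO below was not tested.

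Peaks lay in 2 arms around an empty middle. The stretch from 22052009 to 23270522, 1.22 Mb or 58.0% of the window, held no peak of any of the 12 lists, and the peaks to its left and right are called the left and right arm. Of the 42 steps, 23 had no peak, 17 had a hemogen region, 16 a WT BRG1 region and 12 an H3K27ac region. A region is the union of overlapping peaks with at least 1 peak from each of the 2 libraries of a group. All 16 steps with a WT BRG1 region also held a hemogen region. A stretch without peaks is not thereby unbound.

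**Figure D1:**
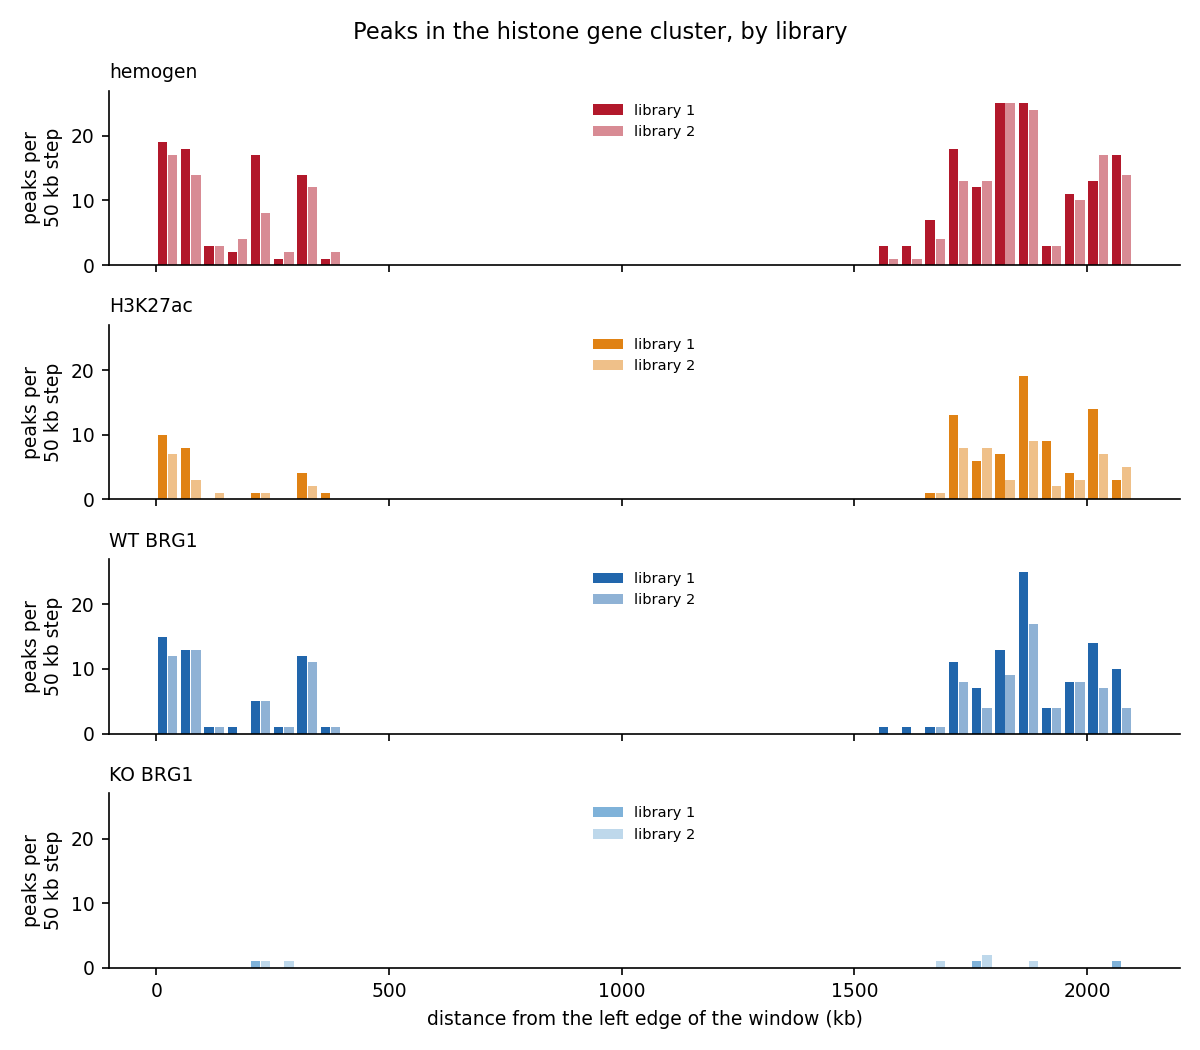
Number of peaks in each 50 kb step (y axis) against the distance from the left edge of the window in kb (x axis), for libraries 1 (dark) and 2 (light) of hemogen, H3K27ac, WT BRG1 and KO BRG1. WT peaks fill both arms and leave the middle empty, and no step holds more than 2 peaks of any KO library.

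Hemogen had the most peaks in the window, 212 in library 1 and 187 in library 2. WT BRG1 had 144 and 106, H3K27ac 100 and 60, and KO BRG1 3 and 6. Peaks covered 7.97% and 6.48% of the window for hemogen, 3.20% and 2.01% for WT BRG1, and 1.59% and 0.963% for H3K27ac. The KO BRG1 peaks covered 0.0340% and 0.0900%. The right arm held most peaks of each list, for example 137 and 125 of those of hemogen and 95 and 62 of those of WT BRG1.

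Since the lists differ in length, the share of each list in the window was compared. The window held 0.547% and 0.501% of the WT BRG1 peaks, 0.400% and 0.436% of the hemogen peaks, 0.143% and 0.132% of the H3K27ac peaks, and 0.0936% and 0.107% of the KO BRG1 peaks. By library the 4 groups did not overlap. On the group lists the shares were 0.552%, 0.324%, 0.131% and 0.165% in the same order, so there KO BRG1 stood above H3K27ac. The mean share was 0.524% ± 0.0326 for WT BRG1 and 0.1005% ± 0.00968 for KO BRG1 (SD, n = 2 each), 5.22 times as high in WT, and the exact permutation test, two-sided, gave p = 0.33. The share for hemogen was 3.04 times that for H3K27ac, also with p = 0.33 in that exact test. With 2 libraries a group 0.33 is the smallest p possible, and all 7 such comparisons made here gave it before and after Benjamini-Hochberg adjustment. A list's share also moved with its length. With BRG1 lists trimmed to their strongest 3205 peaks it was 0.312% and 0.281% in WT and 0.0936% and 0.0624% in the KO.

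**Figure D2:**
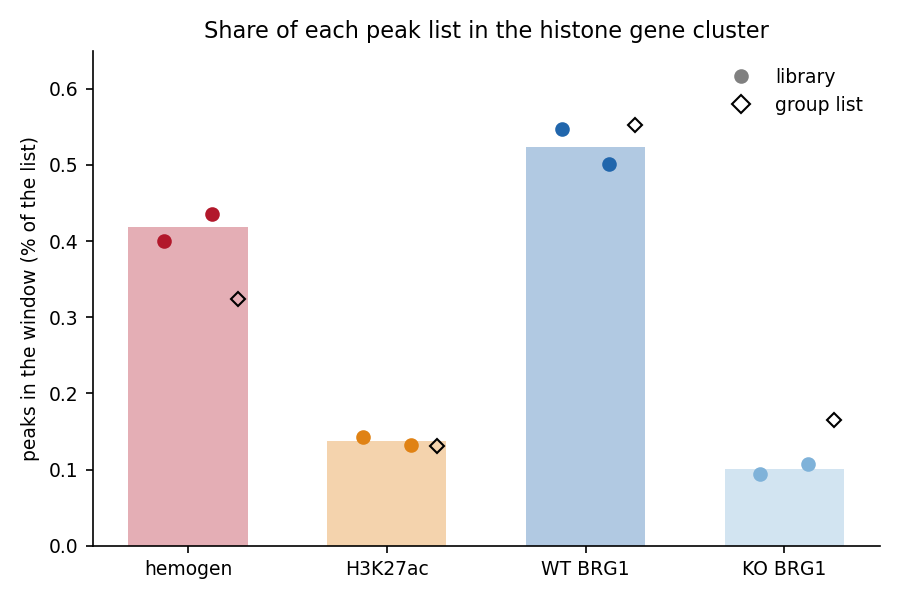
Peaks in the window as a percentage of each list (y axis) for the 4 groups (x axis); dots are libraries 1 and 2 from left to right, bars their mean, diamonds the authors' group list. The WT BRG1 libraries sit at 0.547% and 0.501%, and those of H3K27ac and KO BRG1 at or below 0.143%.

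The arms on either side of the empty middle were packed with hemogen and BRG1 regions. Which of these regions lie at histone genes was not tested. The whole window held 53.3 hemogen, 34.3 WT BRG1 and 17.1 H3K27ac regions per Mb, beside 9.75, 5.03 and 9.62 over the genome. Without the stretch that was set apart for holding no peak, the arms held 127, 81.7 and 40.8. Within an arm, neighbouring hemogen regions started a median of 3.10 kb apart, against 12.1 kb over the genome, and WT BRG1 regions 3.28 kb apart, against 18.8 kb. H3K27ac regions were also denser per Mb in the window, but their neighbours started 10.03 kb apart, against 3.36 kb over the genome. The step at 23.55 Mb held 16 hemogen regions, and none of the 52589 steps of this size in the genome held more. Its 12 WT BRG1 regions were exceeded by 4 steps of the genome. Its 6 H3K27ac regions were exceeded by 1054.

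Steps are named by their start. At 23.55 Mb there were 25 and 24 hemogen peaks, 25 and 17 WT BRG1 peaks and 19 and 9 H3K27ac peaks in libraries 1 and 2. The step before it, at 23.50 Mb, had 25 and 25 hemogen peaks and 13 and 9 WT BRG1 peaks, but 7 and 3 of H3K27ac. In the left arm, the step at 21.70 Mb had 19 and 17 hemogen, 15 and 12 WT BRG1 and 10 and 7 H3K27ac peaks. The next, at 21.75 Mb, had 18 and 14, 13 and 13, and 8 and 3. A separate island at 22.00 Mb held 14 and 12 hemogen and 12 and 11 WT BRG1 peaks, with 4 and 2 of H3K27ac. WT BRG1 was present in both libraries of each of these steps, whereas KO BRG1 had 1 peak in 1 library at 23.55 Mb and 0 in the library lists of the other 4.

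The other occupied steps were of lower density or mixed. The right arm opened with 3 and 1 hemogen peaks in each of the steps at 23.25 and 23.30 Mb, 1 and 0 WT BRG1 peaks and no H3K27ac in either library. From 23.60 Mb on, steps held 2, 7, 10 and 8 hemogen regions, 3, 5, 4 and 4 WT BRG1 regions, and 2, 2, 4 and 1 of H3K27ac, in order of position. The 3 steps from 23.35 to 23.50 Mb held 2, 9 and 7 hemogen, 1, 6 and 3 WT BRG1 and 1, 7 and 4 H3K27ac regions. At 21.90 Mb there were 17 and 8 hemogen peaks but 5 and 5 of WT BRG1 and 1 and 1 of H3K27ac. Steps at 21.80, 21.85, 21.95 and 22.05 Mb had at most 4 peaks in any WT library.

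Hemogen regions of the window were wide and high in their lists. The 112 regions had a median width of 1087 bp, against 840 bp over all 25631. Strength is the percentile of a region's −log10 p, as deposited by the authors, in its own list, averaged over both libraries. It had a median of 77.9, against 65.0. The 72 WT BRG1 regions had a median width of 610 bp against 780 bp over all 13213, and a median strength of 49.8 against 63.0. The 36 H3K27ac regions were 460.5 bp wide at the median against 538 bp, with a strength of 71.4 against 62.4. By fold the order differed for BRG1: the median over its regions was 4.81 and 4.54 in libraries 1 and 2, above the 4.57 and 4.44 of all WT BRG1 regions. For hemogen these folds were 5.60 and 5.22, above 4.72 and 4.49. No test was made over regions.

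All 72 WT BRG1 regions of the window overlapped a hemogen region, beside 96.6% over the genome. Of the 112 hemogen regions, 51 (45.5%, Wilson 95% interval 36.6 to 54.8) overlapped a WT BRG1 region, near the 41.6% of all hemogen regions. With any WT BRG1 peak of any list counted, 92 of the 112 were occupied, 82.1% beside 72.9%. Of the 51, 17 held 2 or more BRG1 regions (33.3%, against 22.4% over the genome), and none more than 3. BRG1 summits lay a median of 356 and 200 bp from the nearest hemogen summit of the same library number, against 241 and 212 bp over the genome. Wilson intervals here cover counting of regions only; regions of 1 locus are not independent.

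Acetylation was sparse at these regions. An H3K27ac region overlapped 15 of the 72 WT BRG1 regions (20.8%, interval 13.1 to 31.6), beside 63.9% over the genome, and 24 of the 112 hemogen regions (21.4%, interval 14.8 to 29.9), beside 39.8%. Of the hemogen regions with BRG1, 17 of 51 had H3K27ac (33.3%), against 73.0% of all such regions. Of the 112, 34 had BRG1 without H3K27ac (30.4%, against 11.2% of all hemogen regions), 7 had H3K27ac without BRG1 and 54 had neither. Of the 36 H3K27ac regions that did occur, 26 (72.2%, interval 56.0 to 84.2) overlapped hemogen or BRG1, beside 49.9% over the genome. BRG1 summits lay a median of 873.5 and 1645 bp from the nearest H3K27ac summit, against 319 and 329 bp.

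Absence of a replicated H3K27ac region did not mean absence of any H3K27ac peak. An H3K27ac peak of some list overlapped 51 of the 72 WT BRG1 regions (70.8%, against 90.2% over the genome). The 2 H3K27ac libraries overlapped about as much here as elsewhere: 40.0% of the window peaks of library 1 and 66.7% of those of library 2 overlapped the other, against 40.2% and 63.5% over the genome. For hemogen the window shares were 64.6% and 85.6%, against 58.1% and 78.0%, and for WT BRG1 53.5% and 80.2%, against 58.4% and 81.0%.

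The strongest WT BRG1 regions are described next, all on chromosome 13 and with the authors' fold enrichment over local background for the strongest overlapping peak of each library. The first, from 21714753 to 21715831 in the left arm, had BRG1 folds of 6.28 and 7.49 in WT libraries 1 and 2 and hemogen folds of 9.34 and 6.46. It had no H3K27ac peak in either library, a fold of 3.25 in the H3K27ac group list, and no KO BRG1 peak in any list. The second, from 23464041 to 23465505, had BRG1 folds of 6.28 and 6.19, hemogen folds of 7.12 and 6.12, and H3K27ac folds of 7.70 and 5.59. In the KO it had folds of 3.44 and 3.93. The third, from 23763644 to 23765443, had BRG1 folds of 5.95 and 6.99 and hemogen folds of 8.48 and 10.3, H3K27ac folds of 3.30 and 4.81, and a KO fold of 4.15 in library 1 alone. Thus 2 of these 3 had H3K27ac in both libraries and were called in a KO library, and the other, the strongest of all, had neither.

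The next pair, from 23684568 to 23686324 and from 23594127 to 23596487, had hemogen folds of 10.7 and 10.9 in library 1 and of 6.21 and 8.73 in library 2, with BRG1 folds of 5.30 and 6.47 and of 7.99 and 5.65. Each had H3K27ac in 1 library only, with folds of 5.03 and 5.47, and neither was in a KO list. The sixth, from 23619765 to 23622260, was the widest at 2496 bp, with BRG1 folds of 8.58 and 5.16 and H3K27ac folds of 4.03 and 3.10. It was called in the KO group list alone, with a fold of 3.53. The remaining 4 of the 10 strongest, from 22036215 to 22037043, 23608954 to 23609627, 21749432 to 21749935 and 23681881 to 23683525, had BRG1 folds between 4.42 and 7.52 and H3K27ac in at most 1 library. None of these 4 was in a KO list.

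**Figure D3:**
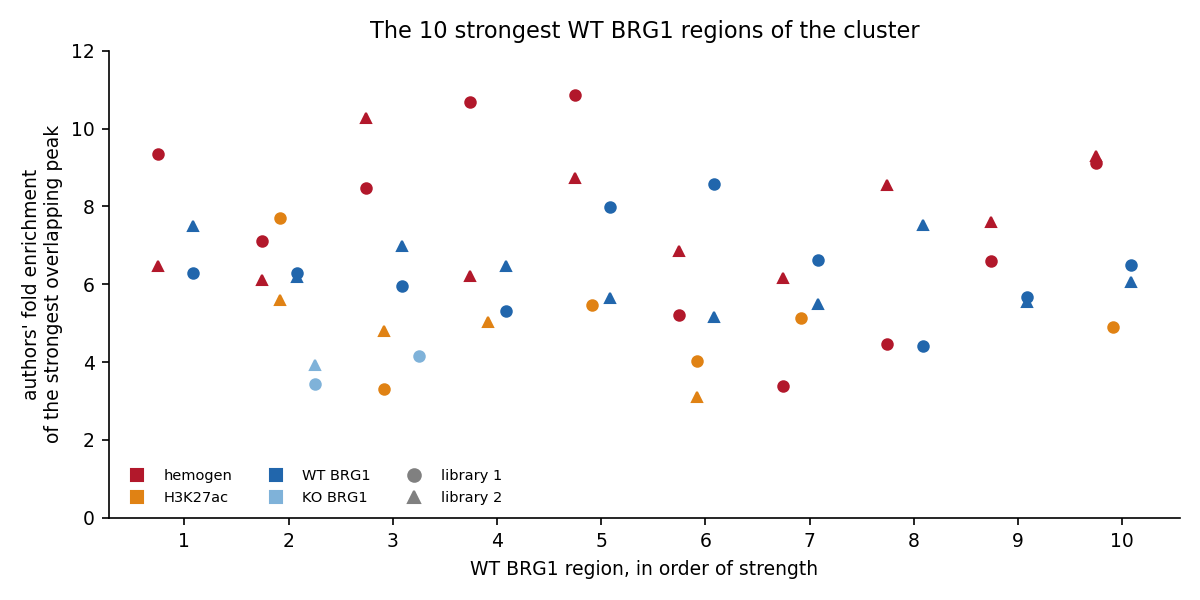
Authors' fold enrichment of the strongest overlapping peak (y axis) at the 10 strongest WT BRG1 regions of the window in order of strength (x axis), coloured by group, with circles for library 1 and triangles for library 2; a missing symbol means no peak in that library. Hemogen and WT BRG1 have both symbols at every region, and KO BRG1 has any at only 2.

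Strong hemogen also occurred without a replicated BRG1 region. The 5 strongest such regions lay from 23411293 to 23413051, 22043484 to 22044954, 23571715 to 23573950, 21781989 to 21783018 and 23597581 to 23598437, with hemogen folds between 5.98 and 9.96 in the 2 libraries. Each had a BRG1 peak in exactly 1 WT library, with folds of 4.66, 3.41, 4.55, 3.55 and 5.44 in that order. At the first, H3K27ac was called in both libraries with folds of 7.18 and 5.05. At the third it was called in library 1 alone, and at the other 3 in neither.

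The widest H3K27ac regions were short, from 1371 bp at 21732856 to 21734226 down to 928 bp at 23457130 to 23458057. The others lay from 23401263 to 23402529, 23464163 to 23465407 and 23458665 to 23459790, so 4 of these 5 fell between 23.40 and 23.50 Mb. Regions with no hemogen and no BRG1 region numbered 10 of 36. The 3 strongest were that from 23457130 to 23458057, with folds of 4.86 and 5.20, one from 23690553 to 23690999, with 5.94 and 4.69, and one from 23554733 to 23555328, with 3.91 and 3.82. Of these 3, only that from 23690553 had no hemogen and no BRG1 peak in any list.

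BRG1 was nearly absent from the KO lists in this window. The WT libraries held 125 ± 26.9 peaks and the KO libraries 4.5 ± 2.12 (SD, n = 2 each). WT had 27.8 times as many, beside 5.40 times over the whole genome. The WT and KO libraries did not overlap, and p was 0.33 in the exact two-sided permutation test, its smallest value. With every BRG1 library list trimmed to its strongest 3205 peaks, the window held 10 and 9 peaks in WT and 3 and 2 in the KO, a ratio of 3.80. On the group lists it held 208 and 23. The 3 peaks of KO library 1 overlapped 0 of the 6 of KO library 2, whereas over the genome 52.3% and 28.9% overlapped. The window had no KO BRG1 region, against 1543 in all.

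Of the 72 WT BRG1 regions, 16 (22.2%, Wilson 95% interval 14.2 to 33.1) overlapped a peak of any of the 3 KO lists (called in the KO, for short), beside 55.3% of all 13213. A missing call does not show that BRG1 was absent. KO library 1 held 2 of the 72 (2.78%, beside 18.4%), KO library 2 held 5 (6.94%, beside 28.9%) and the KO group list 14 (19.4%, beside 53.6%). Only the region from 23464041 to 23465505 was called in both KO libraries, 1.39% beside 12.1%, by peaks that did not overlap each other. On group lists, 18 of 208 WT peaks were called (8.65%), beside 24.6%.

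The window's share lay below that of the genome at each level of BRG1 strength. In regions of strength under 50 it was 6 of 37 (16.2%, against 33.2% of all), from 50 to under 75 it was 6 of 22 (27.3%, against 53.0%), and at 75 and over it was 4 of 13 (30.8%, against 79.4%). It also lay below by acetylation. Of the 15 regions with H3K27ac 7 were called (46.7%, beside 70.7%), and of the 57 without 9 were called (15.8%, beside 28.1%). The Wilson intervals of these window shares, 24.8 to 69.9 and 8.54 to 27.4, both ended just under the genome value. Among regions without H3K27ac, 3 of 27 of strength under 50 were called (11.1%, interval 3.85 to 28.1, beside 20.9%) and 6 of 21 from 50 to under 75 (28.6%, interval 13.8 to 50.0, beside 33.2%), and both intervals held the genome value. Of those of strength 75 and over 0 of 9 were called (interval 0 to 29.9%), beside 38.6%. The 4 called regions of strength 75 and over were all of the window's regions of that strength with H3K27ac. Every missing call at that level was therefore at a region without a replicated H3K27ac region. Of these, the regions from 22036215, 23594127 and 23681881 had an H3K27ac peak in library 1, and that from 23684568 in library 2. Of regions of any strength with no H3K27ac peak of any list, 1 of 21 was called (4.76%, interval 0.846 to 22.7). That interval held the genome value of 8.94%. The genome share for strong regions with H3K27ac was not computed. Most of the 15 regions with H3K27ac had a strength under 50, so the comparison by acetylation also mixes strengths. No test was made over regions.

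**Figure D4:**
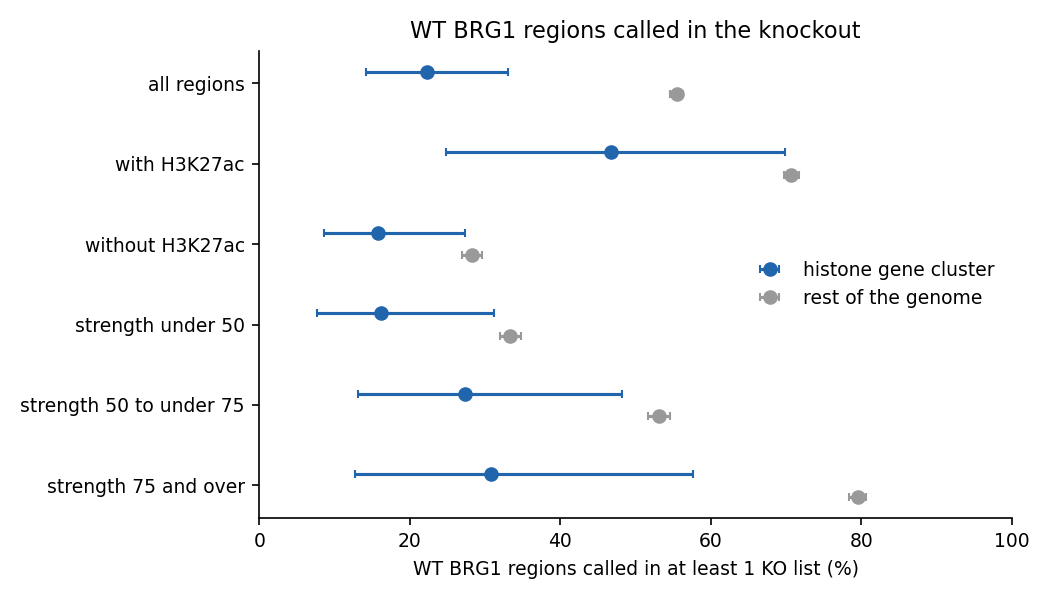
Percentage of WT BRG1 regions called in at least 1 KO list (x axis) in the window and in the rest of the genome, for all regions and by H3K27ac and WT strength (y axis); bars are Wilson 95% intervals over regions. In the window 22.2% of regions were called, and each class lies to the left of its counterpart.

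**Figure D5:**
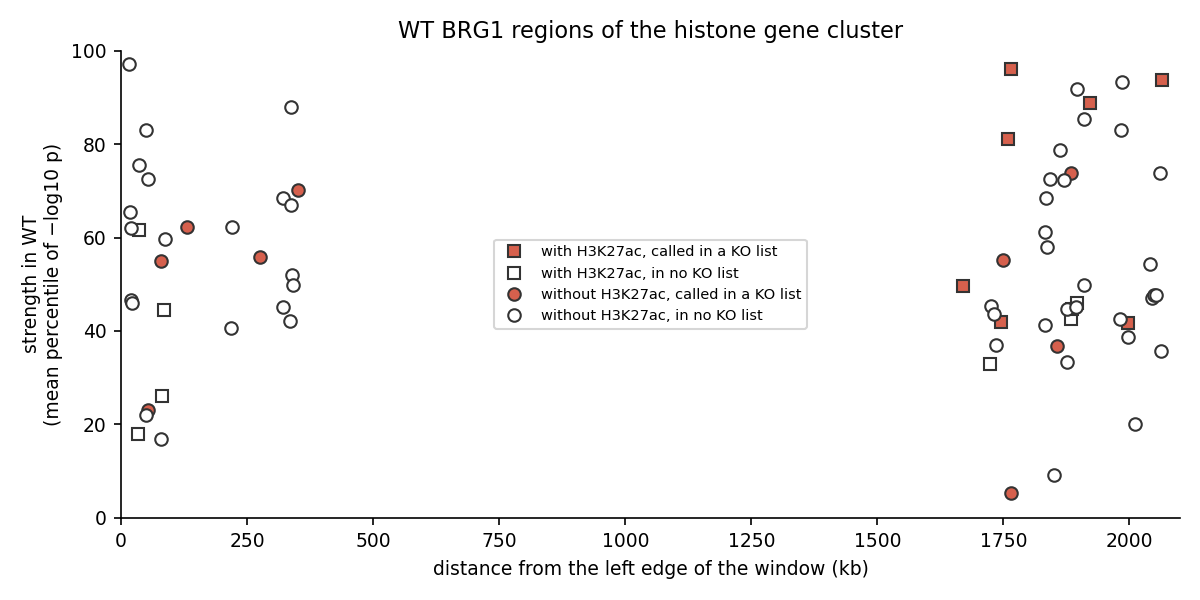
Strength of the 72 WT BRG1 regions (y axis, mean percentile of −log10 p) against the distance from the left edge of the window in kb (x axis), with squares for regions with H3K27ac and filled symbols for those called in a KO list. The 16 filled symbols are spread over both arms, 5 in the left and 11 in the right.

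The calls that remained were unevenly placed. In the 3 steps from 23.35 to 23.50 Mb, 6 of 10 WT BRG1 regions were called (60%), near the 55.3% of all 13213. The steps at 23.50 and 23.55 Mb had 2 of 17 called, and those at 21.70 and 21.75 Mb 2 of 17 (11.8% each). All 10 regions of the step at 21.70 Mb, all 7 at 22.00 Mb, all 5 at 23.50 Mb, all 4 at 23.70 Mb and both at 21.90 Mb were in no KO list. H3K27ac overlapped 5 of the 10 regions in the first stretch, 3 of 17 in the second and 4 of 17 in the third. Over the genome it overlapped 63.9% of WT BRG1 regions. In the left arm 0 of 4 regions with H3K27ac were called, and in the right arm 7 of 11 (63.6%), beside 70.7% of all. Without H3K27ac, 5 of 25 (20%) were called in the left arm and 4 of 32 (12.5%) in the right, beside 28.1% of all. These stretches were chosen after the values were seen.

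The window's densest BRG1 steps were set beside those of the genome. Over the genome 26 steps held 10 or more WT BRG1 regions, with a median called share of 38.2%, 2 of them had none called, and 6 had at most 20% called. The window held 2 of the 26, at 21.70 Mb with 0 of 10 called and at 23.55 Mb with 2 of 12, so both are among the 6. Among the 463 steps with 5 or more regions, 77 had at most 20% called and 19 had none called. The window held 7 of the 463, 5 of the 77 and 3 of the 19, the last at 21.70, 22.00 and 23.50 Mb. This count was chosen after the values were seen and was not tested.

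The 9 KO library peaks can be listed. KO library 1 had peaks from 21945068 to 21945321 with a fold of 4.64, 23464185 to 23464471 with 3.44 and 23763941 to 23764112 with 4.15. KO library 2 had them from 21937151 to 21937373 with 5.05, 21974320 to 21974611 with 7.22, 23368758 to 23369222 with 6.86, 23459129 to 23459510 with 4.46, 23464882 to 23465148 with 3.93 and 23555506 to 23555766 with 4.61. Only those from 21974320 and 23368758 passed a −log10 q of 5, with 6.55 and 8.03. A hemogen peak of at least 1 list lay over all 9, and an H3K27ac peak over 8. Of all peaks in KO library 1, hemogen lay over 98.8% and H3K27ac over 97.1%, and in KO library 2 over 97.7% and 95.8%, so such overlap was the rule in the genome.

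WT BRG1 peaks were missing at 1 of these 9 in its exact interval, that from 21945068, although the overlapping KO group peak, from 21945130 to 21945419, did overlap a WT peak. Of the 23 KO group peaks in the window, 22 had an overlapping WT BRG1 peak in some list, beside 89.1% of all KO group peaks. The exception lay from 23608183 to 23608388, with a fold of 4.46. The region from 21974177 to 21974852 had a higher fold in KO library 2 (7.22) than in the WT libraries (5.47 and 3.57). It was called in neither H3K27ac library. At the region from 23368475 to 23369831 the fold of 6.86 in KO library 2 stood beside 2.38 and 6.46 in WT, with H3K27ac folds of 2.50 and 6.96. Folds of different libraries rest on different depths, and this difference was not tested.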

How the data were processed

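ChIP-seq was deposited as peak lists, 1 for each of 8 fetal liver libraries and 1 for each of 4 groups. The lists deposited by the authors give each peak's fold (its ratio over background) and, on a −log10 scale, its p-value and q-value. MACS2 2.2.7.1, Picard 2.21.4, Bowtie2 2.3.5 and SAMtools 1.9 are named, without their roles, per the submitters' processing notes. The build, the control of each call, and whether group lists pool reads are stated in no source used here. Groups and library numbers came from sample titles. The K562 samples were not analysed here.

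Peaks were compared by overlap of at least 1 bp (Python 3.11.15, pandas 2.3.3, NumPy 2.4.6, SciPy 1.17.1), on the 19 autosomes and chromosome X. Overlap with any of the 3 KO lists, the group list included, counted as a KO call, except in alternatives that state another rule. Peaks were placed in steps by summit and regions by centre. Genome steps run from each chromosome's first base to its last peak. Relative depth was recovered by taking each p-value as an upper Poisson tail of the peak's read count. The lowest background so found was divided by the width of the list's shortest peak. Overlap, merging and depth steps were tested on simulated data, with 0 differences in 2000 overlaps. In all 4 simulated depth settings, drawn under the same Poisson reading, scaling and background were recovered within 1%. The division by peak width was not simulated. Since lists hold no read counts, absolute depth is unknown.

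Regions named were the 10 strongest WT BRG1 regions, those called in both KO libraries, the 5 strongest in no KO list, the 5 strongest hemogen regions without BRG1, the 5 widest H3K27ac regions, the 3 strongest with neither factor, and KO peaks without a WT BRG1 peak. The other KO peaks and the regions called in 1 KO library were named after their values were seen, as were the strength classes, arms and stretches. The window, lists and tests were chosen with earlier results of these data known. Alternatives covered group lists, overlap, a −log10 q of 5, list length, step size, single libraries and pairing by library number.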

Additional observations from a re-analysis of the deposited data

How the results depend on the processing

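WT exceeded KO in BRG1 peaks of the window under all 10 alternatives. The lowest ratio was 3.80 (lists trimmed to 3205 peaks, genome 1 by construction) and the highest 63.0 (a −log10 q of 5, genome 10.6). The highest rests on 0 and 2 window peaks in KO libraries 1 and 2. With 1 library left out the ratio was 20.8 to 41.7 (genome 4.25 to 7.41). For WT BRG1 regions, the share with a KO call lay below the genome value under all 13 alternatives, but its size moved. It was 8.65% on group lists, 3.57% at a −log10 q of 5 (1 of 28) and 1.39% with a call in both KO libraries. On trimmed library lists, without the group list, it was 40.0% (2 of 5). Without WT library 1 it was 14.2% and without WT library 2 12.5%, counted over the peaks of the remaining WT library. Leaving out a KO library also left out the KO group list. The share was then that of the remaining KO library, 6.94% without library 1 and 2.78% without library 2. Values without a WT library and without a KO library thus rest on different call rules. From both KO library lists, without the group list, the share was 8.33% (genome 35.3%). In the left and right arm it was 17.2% and 25.6% (genome 55.3%). These 3 settings were chosen after seeing the data. The replicate block matches library numbers, which the labels tie to no shared animal or batch, and does not use the KO group list. Its ratio of WT to KO peaks was 29.1 (genome 5.58) and its share with a KO call 2.40% (genome 14.6%). For the overlaps among WT lists below, trimmed lists held 21165 peaks each, the length of the shortest WT library list. Hemogen regions with BRG1 were 32.1% at a −log10 q of 5 (genome 41.0%) and 62.5% on trimmed lists (genome 62.5%). With 1 library left out they were 25.5% to 63.4% (genome 25.1% to 56.8%). They lay below the genome value in 2 of 8 alternatives, on trimmed lists by less than the rounding. WT BRG1 regions with hemogen were 94.2% on group lists (genome 93.2%) and 93.9% on trimmed lists (genome 83.2%). With 1 library left out they were 86.8% to 100% (genome 85.0% to 97.7%). WT BRG1 regions with H3K27ac were 50.5% on group lists (genome 70.5%) and 12.1% on trimmed lists (genome 39.5%). At a −log10 q of 5 they were 7.14% (genome 50.4%). With 1 library left out they were 15.1% to 44.4% (genome 47.2% to 76.0%), the highest without H3K27ac library 2. They lay below the genome value in all 8. The cause of these moves was not tested. H3K27ac regions with hemogen or BRG1 ranged from 61.7% to 81.3% and lay above the genome value in all 10. The genome value ranged from 27.1% on group lists to 60.2% on trimmed lists. On trimmed lists the window was near it, at 64.7% (11 of 17). Step counts kept within the limit of 1.5 times that was set for a change. Distances of histone gene starts to regions were not run, since no mouse annotation was used here. KO depth limits what a missing KO call can show.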
